A study of Mus musculus with 12 samples.

Results

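Vwf, F3, Tfpi, Thbd, Procr, F2r, Plat, Plau and Plaur are 9 genes with which endothelial cells start, restrain and dissolve blood clots. They were chosen by symbol, and all 9 were among the 32419 genes of the deposited tables. RNA was measured by RNA-seq in primary brain endothelial cells (BECs) of Cort+/+ and Cort-/- mice, the latter without a functional gene for the neuropeptide cortistatin, both C57BL/6 by the labels and C57BL/6J by the methods. Cultures came from animals of 8 weeks, with 3 mice pooled for each replicate. They were kept for 24 h at 21% O2 in 5.5 mM glucose (normoxia and normoglycaemia, NX/NG), or for 4 h at 1% O2 without glucose and serum followed by 20 h of reoxygenation with 10% serum (OGD-R). Of 12 samples listed, 10 had a column, which gave 3 Cort+/+ and 2 Cort-/- libraries in each environment. The labels also describe all samples as an ischemic stroke mouse model (MCAO), whereas the methods describe an in vitro injury of cultured cells. The cultures were enriched with puromycin and were not sorted, and in bulk RNA fewer cells of a type and less RNA per cell cannot be told apart.

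Clotting starts when tissue factor, encoded by F3, meets factor VII in blood, and ends with thrombin, which cleaves fibrinogen. Quiescent endothelium holds this back in several ways. Tissue factor pathway inhibitor (Tfpi) blocks the first step. Thrombomodulin (Thbd) binds thrombin and turns it towards protein C, which the endothelial protein C receptor (Procr) presents for activation. Tissue-type and urokinase-type plasminogen activators (Plat and Plau, the latter bound by its receptor Plaur) produce plasmin, which dissolves fibrin. Von Willebrand factor (Vwf) tethers platelets and carries factor VIII, and F2r encodes the thrombin receptor PAR1. In brain vessels these molecules act beside the barrier, and tissue plasminogen activator is also the drug used to reopen arteries in ischaemic stroke.

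All libraries held nearly the same number of reads on genes, from 12386048 to 12390428, as recovered from the deposited RPKM values (reads scaled to gene length and library size). The targeted gene, Cort, had 0 reads in all 4 Cort-/- libraries, but only 1 or 2 reads in 4 of the 6 Cort+/+ libraries and 0 in the other 2, so it could not check the genotype labels at this depth. One ribosomal RNA gene, Rn18s-rs5, took between 7.64% and 15.8% of the reads of 8 libraries. Its share was 0.0775% for Cort+/+ OGD-R replicate 1, and 0.0951% for replicate 3 of Cort-/- OGD-R. For the main results that rest on these libraries, values without them are also given. The endothelial markers, 7 genes including Cldn5, Cdh5 and Pecam1, summed to between 883 and 1340 RPKM. The fibroblast markers, 6 genes including Col1a1, summed to between 83.6 and 342 RPKM, and the 4 platelet markers, Pf4, Itga2b, Gp9 and Ppbp, to at most 1.01 RPKM, with 0 to 2 of the 4 at 0 in a library.

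All 9 genes were read in every library, with 358 to 4756 reads per gene. On a scale common to both environments, their levels over the 10 libraries were highest for Procr, with a mean of 109.6 RPKM ± 30.9 (SD, n = 10), followed by F2r at 78.9 ± 12.6 and Plau at 76.8 ± 10.9. Thbd came next at 60.1 ± 12.98 RPKM. The other genes were lower, with Plaur at 23.7 ± 4.82, Tfpi at 18.5 ± 1.47, F3 at 16.8 ± 4.17, Vwf at 12.99 ± 3.68 and Plat at 9.01 ± 0.936 RPKM. The ranges of Procr, F2r, Plau and Thbd overlapped, as did those of Plaur, Tfpi, F3 and Vwf, and those of Vwf and Plat. Pooled ranges do not decide the order within these sets, since all genes were read in the same libraries. Within every library Plaur exceeded F3, and F3 exceeded Vwf. For the other pairs within these sets, the order changed between libraries. The level of Procr stood above that of 98.7% of all genes and the level of Plat above that of 81.1%. Procr and Vwf varied most between libraries, with coefficients of variation of 28.2% and 28.4%, and Tfpi least, with 7.92%. The median gene whose mean level reached 1 RPKM varied by 11.7%.

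Stretches before the start sites of 4 members are shown because they held the same short motif, 1 of 5 motifs searched. RefSeq sequences (GRCm38.p6) were at hand for 5 of the 9 genes, namely F3, Procr, Plaur, F2r and Tfpi. TGANTCA, the binding sequence of AP-1 factors and identical on both strands, was present in the 250 bases before the start of F3, Procr, Plaur and F2r, and in neither of the 2 Tfpi entries. Over all 32851 promoter entries, 6.75% held it in a window of the same length. It began 146 and 135 bases before the start in F3, 154 in Procr, 69 in Plaur and 204 in F2r. ACGTG, the core of the hypoxia response element, was searched on both strands and had no match in any of the 5 genes, against 16.6% of all entries. CACCC, a core bound by Krüppel-like factors, matched on either strand in 4 of 5 genes, against 52% of all entries. GGGCGG, the GC box, also matched in 4 of 5, against 32.7%, and TATAAA, the TATA box, in 1 of 5, against 12.4%. Each match describes letters in a window and not a site in use. In the following stretches, printed 5′ to 3′ on the gene's strand and ending before the start or the first protein-coding transcript's exon, capitals mark TGANTCA.
F3, chr3:121723287-121723536, plus strand: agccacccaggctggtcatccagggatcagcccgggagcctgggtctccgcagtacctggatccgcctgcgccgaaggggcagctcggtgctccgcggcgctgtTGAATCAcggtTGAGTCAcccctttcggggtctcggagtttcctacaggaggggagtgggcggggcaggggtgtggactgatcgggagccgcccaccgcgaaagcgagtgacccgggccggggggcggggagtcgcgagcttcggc
Procr, chr2:155750967-155751116, plus strand: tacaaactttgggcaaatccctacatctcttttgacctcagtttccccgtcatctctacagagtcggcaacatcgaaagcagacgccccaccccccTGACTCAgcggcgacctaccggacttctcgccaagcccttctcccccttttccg
Plaur, chr7:24462233-24462482, plus strand: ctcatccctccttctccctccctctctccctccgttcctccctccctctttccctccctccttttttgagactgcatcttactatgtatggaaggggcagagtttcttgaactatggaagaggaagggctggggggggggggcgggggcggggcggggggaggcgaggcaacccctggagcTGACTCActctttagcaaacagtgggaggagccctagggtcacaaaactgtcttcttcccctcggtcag
F2r, chr13:95618488-95618716, minus strand: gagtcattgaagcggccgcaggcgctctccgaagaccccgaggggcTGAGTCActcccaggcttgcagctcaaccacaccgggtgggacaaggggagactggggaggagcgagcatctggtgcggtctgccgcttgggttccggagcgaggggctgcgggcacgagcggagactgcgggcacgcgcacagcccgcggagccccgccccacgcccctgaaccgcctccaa

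The first question was whether BECs that lack cortistatin differ in these genes. In both environments, Cort-/- cells had less Thbd, somewhat less Tfpi and more Procr than any Cort+/+ library of the same environment. Both partners of protein C activation thus lay apart, in opposite directions. Such separation was common, since 32.7% of the genes that reached 1 RPKM in 2 or more libraries did not overlap between genotypes under NX/NG. The share of the members under NX/NG was about the same. After OGD-R, 16.2% of all such genes did not overlap. F3 and Vwf were also lower in every Cort-/- library after OGD-R. Fold changes of the members, Cort-/- over Cort+/+, ran from 0.659 for Thbd under NX/NG to 1.51 for Procr after OGD-R, and no member passed an FDR of 0.05 by limma in either environment. Plat, Plau, Plaur and F2r overlapped between genotypes in both environments.

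**Figure D1:**
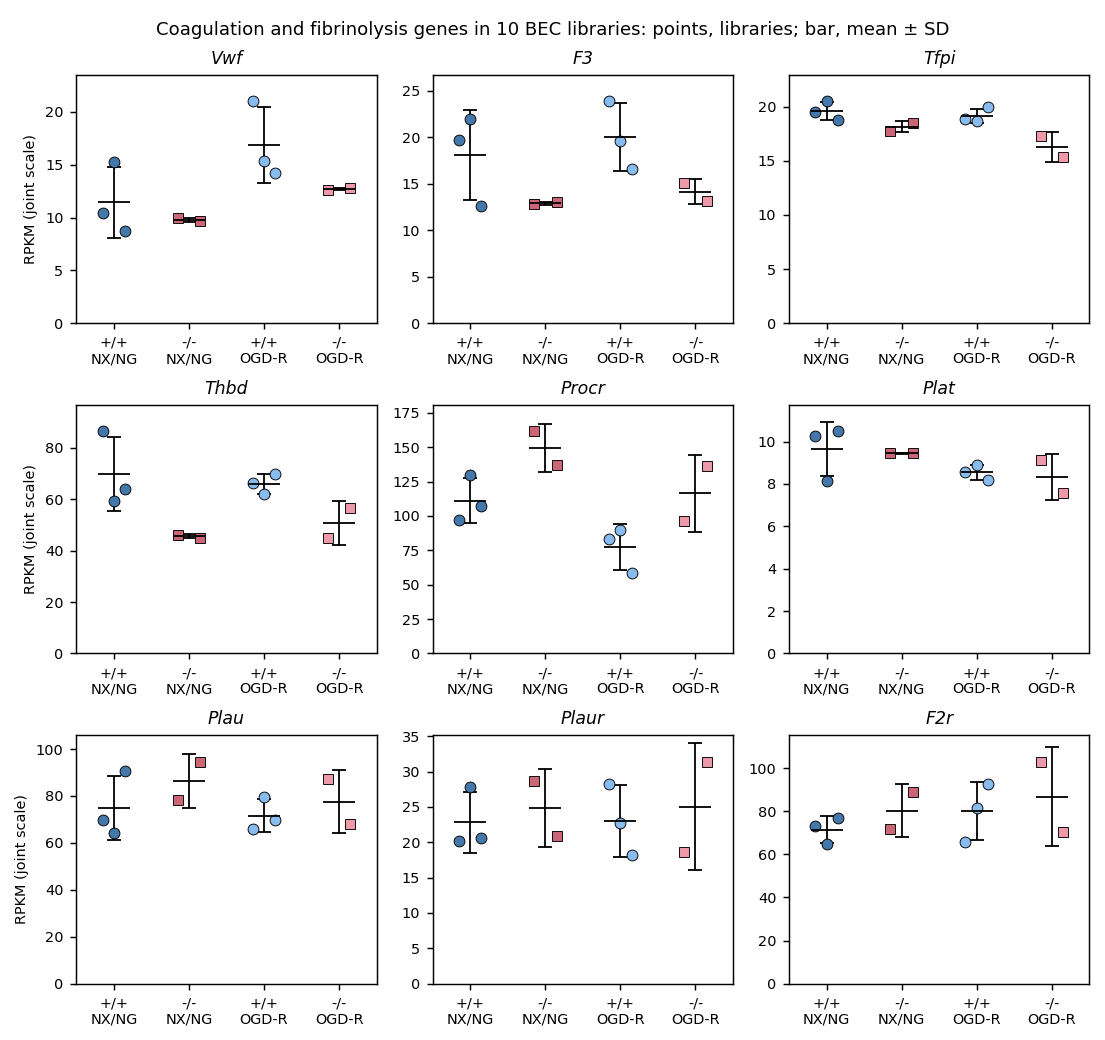
Level of each of the 9 genes in RPKM on the joint scale (vertical axes from 0) in the 10 libraries, by genotype and environment. Points are libraries, and bars give the mean ± SD of 3 Cort+/+ or 2 Cort-/- libraries. Thbd lay lower and Procr higher in Cort-/- than in Cort+/+ libraries in both environments, while the groups overlapped for Plau, Plaur and F2r.

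Thbd, the thrombin-binding cofactor, was at 46.1 and 45.1 RPKM in the Cort-/- and at 86.5, 59.3 and 64.1 RPKM in the Cort+/+ libraries under NX/NG. After OGD-R it was at 44.8 and 56.7 RPKM in Cort-/- and at 66.5, 62.0 and 69.8 RPKM in Cort+/+ cells. The 4 Cort-/- values lay below all 6 Cort+/+ values, although the groups came closest in Cort-/- OGD-R replicate 3. The log2FC was -0.60 ± 0.17 (SE) under NX/NG (limma, unadjusted p = 0.0166, FDR = 0.459) and -0.39 ± 0.13 after OGD-R (unadjusted p = 0.0311, FDR = 0.978). Leaving out each library in turn gave log2FCs of Thbd from -0.71 to -0.44 under NX/NG and from -0.56 to -0.22 after OGD-R, and without both libraries low in ribosomal RNA the value after OGD-R was -0.55.

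Procr, the receptor that presents protein C, was at 161 and 137 RPKM in the Cort-/- and at 97.1, 129 and 107 RPKM in the Cort+/+ libraries under NX/NG. After OGD-R the values were 96.6 and 136 RPKM in Cort-/- cells and 83.4, 89.8 and 58.4 RPKM in Cort+/+ cells. Within each environment the lowest Cort-/- library exceeded the highest Cort+/+ library by a narrow margin. The log2FC of Procr was 0.42 ± 0.15 under NX/NG (limma, unadjusted p = 0.0345, FDR = 0.545) and 0.59 ± 0.25 after OGD-R (unadjusted p = 0.0574, FDR = 0.978). Without both libraries low in ribosomal RNA it was 0.41 after OGD-R, from a single Cort-/- library. Leaving out each library in turn gave 0.31 to 0.54 under NX/NG and 0.35 to 0.84 after OGD-R.

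Tissue factor showed a looser difference. F3 was at 12.8 and 13.02 RPKM in Cort-/- and at 19.6, 21.9 and 12.6 RPKM in Cort+/+ cells under NX/NG, where Cort+/+ replicate 3 lay as low as the Cort-/- libraries. After OGD-R, F3 was at 15.1 and 13.2 RPKM in Cort-/- and at 23.9, 19.6 and 16.6 RPKM in Cort+/+ cells, without overlap. The log2FC of F3 was -0.45 ± 0.25 under NX/NG (limma, unadjusted p = 0.128) and -0.49 ± 0.17 after OGD-R (unadjusted p = 0.0327, FDR = 0.978), and without the libraries low in ribosomal RNA the latter was -0.26.

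Tfpi, the inhibitor of the tissue factor complex, was the steadiest of the 9 genes. It was at 17.8 and 18.5 RPKM in Cort-/- and at 19.5, 20.5 and 18.8 RPKM in Cort+/+ cells under NX/NG. After OGD-R it was at 17.3 and 15.3 RPKM in Cort-/- and at 18.9, 18.7 and 19.9 RPKM in Cort+/+ cells. The genotypes did not overlap in either environment, but the difference was small, with a log2FC of Tfpi of -0.12 ± 0.06 under NX/NG (limma, unadjusted p = 0.1001) and of -0.23 ± 0.09 after OGD-R (unadjusted p = 0.0472, FDR = 0.978). Without the libraries low in ribosomal RNA the latter was -0.16, from a single Cort-/- library.

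Vwf, whose product tethers platelets, was at 9.93 and 9.65 RPKM in Cort-/- and at 10.4, 15.2 and 8.70 RPKM in Cort+/+ cells under NX/NG, with overlap. After OGD-R, Vwf was at 12.6 and 12.8 RPKM in Cort-/- and at 21.004, 15.4 and 14.2 RPKM in Cort+/+ cells, without overlap. The log2FC of Vwf between genotypes was -0.19 ± 0.24 under NX/NG (limma, unadjusted p = 0.468) and -0.39 ± 0.18 after OGD-R (unadjusted p = 0.0812). The highest value of the gene came from Cort+/+ OGD-R replicate 1, and without both libraries low in ribosomal RNA the log2FC after OGD-R was -0.22.

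The plasminogen activators and their receptor showed no difference between genotypes beyond the spread. Plat, which encodes tissue plasminogen activator, was at 9.47 and 9.44 RPKM in Cort-/- and at 10.3, 8.16 and 10.5 RPKM in Cort+/+ cells under NX/NG, and at 9.11 and 7.56 against 8.58, 8.87 and 8.18 RPKM after OGD-R. The 95% interval of its log2FC ran from -0.34 to 0.29 under NX/NG and from -0.33 to 0.24 after OGD-R. Plau, encoding urokinase, was at 78.3 and 94.6 RPKM in Cort-/- against 70.0, 64.3 and 90.4 RPKM in Cort+/+ cells under NX/NG, and at 87.1 and 68.0 against 65.9, 79.5 and 69.6 RPKM after OGD-R. The intervals for Plau ran from -0.23 to 0.65 and from -0.28 to 0.49. Plaur, the urokinase receptor, was at 28.7 and 20.9 RPKM in Cort-/- against 20.1, 27.8 and 20.6 RPKM in Cort+/+ cells under NX/NG. After OGD-R, Plaur was at 18.7 and 31.4 against 28.3, 22.7 and 18.2 RPKM, and both genotypes thus spanned a similar range. Its intervals ran from -0.41 to 0.63 and from -0.61 to 0.80.

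F2r, the thrombin receptor, was at 71.6 and 89.1 RPKM in Cort-/- and at 73.1, 64.6 and 76.8 RPKM in Cort+/+ cells under NX/NG. After OGD-R, F2r was at 103 and 70.5 RPKM in Cort-/- and at 65.8, 81.7 and 92.5 RPKM in Cort+/+ cells. The genotypes overlapped in both environments, with 95% intervals of the log2FC from -0.16 to 0.47 under NX/NG and from -0.46 to 0.67 after OGD-R.

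Counts of members have to be read against all genes. Under NX/NG, 3 of 9 members did not overlap between genotypes. This was about the share of all genes that reached 1 RPKM in 2 or more libraries, of which 32.7% did not. After OGD-R, 5 of 9 members did not overlap, where 16.2% of such genes did not. At an unadjusted p below 0.05, limma found 2 members under NX/NG (8.39% of all genes tested) and 3 after OGD-R (3.42% of all genes tested). At an FDR of 0.05, limma called 0 members and 0% of all genes in both environments. On the recovered reads, limma-voom found 3 members at an unadjusted p below 0.05 under NX/NG (11% of all genes) and 4 after OGD-R (4.04% of all genes), and called 0 members at an FDR of 0.05, against 0.414% and 0.0168% of all genes. The median log2FC of the 9 members was -0.02 under NX/NG and -0.04 after OGD-R, beside -0.01 and -0.01 for all genes.

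Sums of fibroblast and pericyte markers lay apart between genotypes under NX/NG and overlapped after OGD-R. Under NX/NG, the fibroblast markers summed to 121 and 83.6 RPKM in the Cort-/- and to between 193 and 279 RPKM in the Cort+/+ libraries, with 3 of the 6 genes lower and 1 higher without overlap, and the pericyte markers to between 7.59 and 10.2 against between 17.9 and 21.4 RPKM, with 3 of 6 lower. After OGD-R, the fibroblast sums were between 200 and 252 RPKM in Cort-/- and between 231 and 342 RPKM in Cort+/+ cells, with 2 of 6 lower without overlap. The pericyte sums were between 15.3 and 17.6 against between 17.4 and 22.9 RPKM, with 1 of 6 lower. Of all genes that reached 1 RPKM in 2 or more libraries, 32.7% did not overlap under NX/NG and 16.2% after OGD-R. None of the fibroblast genes was at 0 in a library under NX/NG. The 5 epithelial markers summed to 37.0 and 8.81 RPKM in Cort-/- and to between 1.43 and 7.45 RPKM in Cort+/+ cells after OGD-R, with 2 of 5 higher without overlap. Under NX/NG they overlapped between genotypes, and Cort+/+ replicate 2, which had the most Vwf and F3 of that environment, stood apart at 49.7 RPKM. The 7 endothelial markers summed to 1121 and 1254 RPKM in Cort-/- and to between 883 and 1130 RPKM in Cort+/+ cells under NX/NG. After OGD-R they summed to 1340 and 1006 against between 941 and 1119 RPKM. Of these 7 genes, 7 had positive log2FCs under NX/NG and 6 after OGD-R, 0 of them with an unadjusted p below 0.05 by limma. The part of all these markers in the differences of the 9 genes was not tested. The platelet markers summed to at most 1.01 RPKM under NX/NG and 0.730 RPKM after OGD-R, beside Vwf at 8.70 RPKM or more.

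Since Thbd was lower and Procr higher in Cort-/- cells in both environments, the genotype difference averaged over NX/NG and OGD-R was also fitted, a contrast chosen after the values were seen. Its log2FC was -0.49 ± 0.11 for Thbd (limma, unadjusted p = 0.00233, FDR = 0.189) and 0.51 ± 0.16 for Procr (unadjusted p = 0.0105, FDR = 0.309). F3 (-0.47 ± 0.16) and Tfpi (-0.17 ± 0.05) also had unadjusted p values below 0.05, which gave 4 of 9 members, beside 10% of all genes tested. Limma-voom also found 4 members at that threshold, beside 11.2% of all genes. By limma 0 members passed an FDR of 0.05, as did 0.0549% of all genes. With limma-voom, Thbd passed it (log2FC -0.49, FDR = 0.0417), the only member to do so, beside 0.761% of all genes. For Thbd the limma value ranged from -0.58 to -0.41 when each library was left out in turn, with unadjusted p values of at most 0.0116, and in none of these fits did it pass the FDR. Without both libraries low in ribosomal RNA the averaged log2FC was -0.58 for Thbd, 0.42 for Procr, -0.35 for F3 and -0.13 for Tfpi, and 2 members instead of 4 had an unadjusted p below 0.05. In this contrast 5 of 6 fibroblast markers had negative log2FCs, 3 of them with an unadjusted p below 0.05, and Pdgfra a positive one (0.25 ± 0.22). Of the 6 pericyte markers 5 had negative log2FCs, 4 with an unadjusted p below 0.05. Of the 7 endothelial markers 6 had positive log2FCs, 1 with an unadjusted p below 0.05. The part of these lists was not tested.

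**Figure D2:**
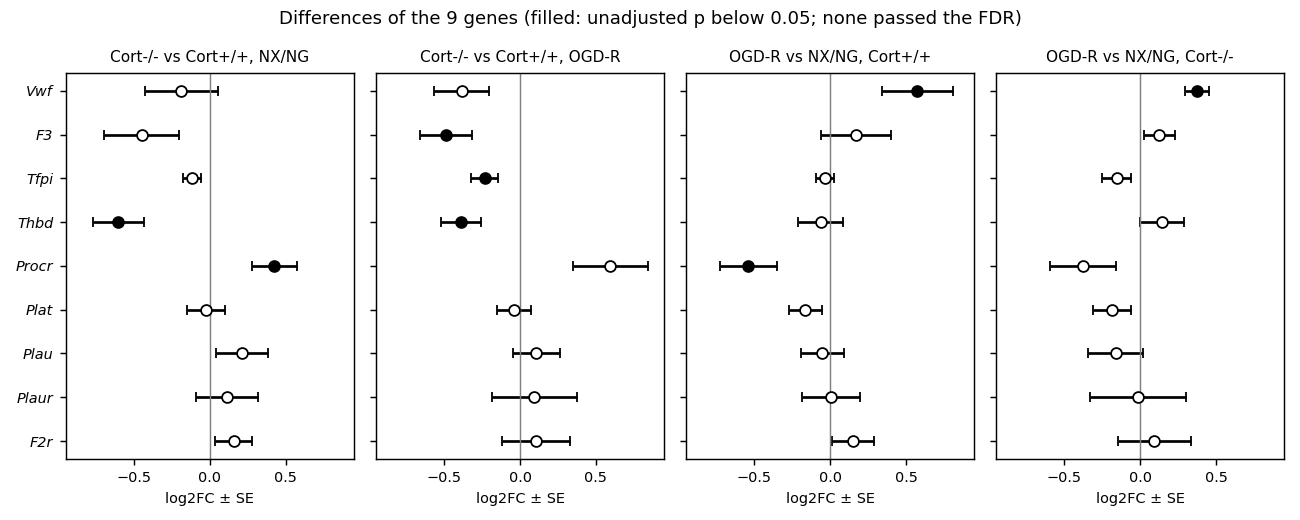
The log2FC ± SE by limma (horizontal axes) of the 9 genes (rows) in the 4 comparisons (panels). Filled points have an unadjusted p below 0.05 and no point passed an FDR of 0.05. Thbd was shifted to the left and Procr to the right in both genotype comparisons, and Vwf to the right and Procr to the left in both environment comparisons.

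The second question was how these genes respond to ischaemia-like injury. Vwf was higher and Procr lower after OGD-R in both genotypes, and neither passed the FDR. In Cort+/+ cells Vwf went from between 8.70 and 15.2 RPKM under NX/NG to between 14.2 and 21.004 RPKM after OGD-R, with overlap only because NX/NG replicate 2 exceeded OGD-R replicate 3. The log2FC of Vwf was 0.57 ± 0.24 (limma, unadjusted p = 0.0476, FDR = 0.881), and 0.41 without the library low in ribosomal RNA. In Cort-/- cells both OGD-R libraries, at 12.6 and 12.8 RPKM, exceeded both NX/NG libraries, at 9.93 and 9.65 RPKM, with a log2FC of 0.37 ± 0.08 (limma, unadjusted p = 0.0087, FDR = 0.816), and 0.36 without replicate 3 of OGD-R.

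Procr was lower in all 3 Cort+/+ OGD-R libraries, at 89.8 RPKM or less, than in any NX/NG library, at 97.1 RPKM or more, with a log2FC of -0.54 ± 0.19 (limma, unadjusted p = 0.026, FDR = 0.881), and -0.61 without the library low in ribosomal RNA. In Cort-/- cells the 2 OGD-R libraries were at 96.6 and 136 RPKM, below 161 and 137 RPKM under NX/NG, but OGD-R replicate 3 lay close to the nearer NX/NG library. The log2FC of Procr there was -0.38 ± 0.22 (unadjusted p = 0.158), and -0.62 without that replicate. Thbd, its partner, had log2FCs of -0.06 (95% interval -0.42 to 0.29) in Cort+/+ and 0.14 (95% interval -0.25 to 0.54) in Cort-/- cells.

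For F3, the log2FC after OGD-R was 0.17 in Cort+/+ and 0.13 in Cort-/- cells, and in the latter both OGD-R libraries (15.1 and 13.2 RPKM) lay above the NX/NG libraries (12.8 and 13.02 RPKM) by a narrow margin. Plat was lower in both Cort-/- OGD-R libraries (9.11 and 7.56 RPKM) than under NX/NG (9.47 and 9.44 RPKM), with log2FCs of -0.19 ± 0.12 in Cort-/- and -0.16 ± 0.11 in Cort+/+ cells. Tfpi was lower in both Cort-/- OGD-R libraries too, with a log2FC of -0.16 ± 0.10, against -0.03 ± 0.06 in Cort+/+ cells. Without OGD-R replicate 3, low in ribosomal RNA, the log2FC in Cort-/- cells was -0.05 for Plat, -0.07 for Tfpi and 0.22 for F3. For Plau, Plaur and F2r the groups overlapped in both genotypes and the log2FCs lay between -0.16 and 0.15.

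In Cort+/+ cells 1 of 9 members, Procr, did not overlap between environments, where 12.7% of the genes that reached 1 RPKM in 2 or more libraries did not, and in Cort-/- cells 5 of 9, where 34.2% did not. An unadjusted p below 0.05 was found by limma for 2 members in Cort+/+ cells (5.48% of all genes tested) and for 1 in Cort-/- cells (4.08% of all genes tested). At an FDR of 0.05 limma called 0 members in both, and 0.0332% of all genes in Cort+/+ and 0% in Cort-/- cells. The counts by limma-voom were 2 members at an unadjusted p below 0.05 in each genotype (5.57% of all genes in Cort+/+ and 3.98% in Cort-/- cells) and 0 at the FDR, against 0.00369% of all genes in Cort+/+ and 0% in Cort-/- cells. The environment comparisons share libraries with the genotype comparisons, and the levels in both environments came from tables that were brought to a common scale here.

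Whether the response to OGD-R differed between genotypes was asked with an interaction term. No member had an unadjusted p below 0.05 by limma, where 2.85% of all genes tested did, or by limma-voom, where 2.71% did. None passed the FDR, as did 0.011% of all genes by limma and 0% by limma-voom. The 95% intervals of the interaction were wide, from -0.32 to 0.73 for Thbd, from -0.55 to 0.88 for Procr and from -0.95 to 0.54 for Vwf on the log2 scale.

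Replicate cultures of the same group differed in a way that tied some of the genes together. Plaur and F2r ran opposite to each other. The 4 libraries with the most Plaur, at 27.8, 28.3, 28.7 and 31.4 RPKM, were the 4 with the least F2r, at 64.6, 65.8, 71.6 and 70.5 RPKM, and each group held exactly 1 of them. Over the 10 libraries Pearson's r of log2 levels was -0.80 and Spearman's rho -0.77. Leaving out the 2 libraries farthest from the median of Plaur gave r = -0.84. Within groups, as deviations from the group means, r was -0.98, and 8 of the 13788 genes averaging 1 RPKM or more, F2r included, had a correlation with Plaur at least as negative. In a group of 2 libraries such deviations mirror each other, so correlations within groups rest on fewer than 10 independent values. Without both libraries low in ribosomal RNA, which are 2 of the 4 with high Plaur, r over the other 8 libraries was -0.78. In Cort+/+ NX/NG, Cort+/+ OGD-R and Cort-/- OGD-R the library with the most Plaur was the lowest of its group in ribosomal RNA, and in Cort-/- NX/NG it was the higher (10.6% against 8.02%). That library also had the highest fibroblast marker sum of its group in all 4 groups, at 279, 121, 342 and 252 RPKM in Cort+/+ NX/NG, Cort-/- NX/NG, Cort+/+ OGD-R and Cort-/- OGD-R. The endothelial marker sum was lowest of its group in the same libraries, at 883, 1121, 941 and 1006 RPKM. The part of cell type markers and ribosomal RNA in the relation of Plaur and F2r was not tested.

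**Figure D3:**
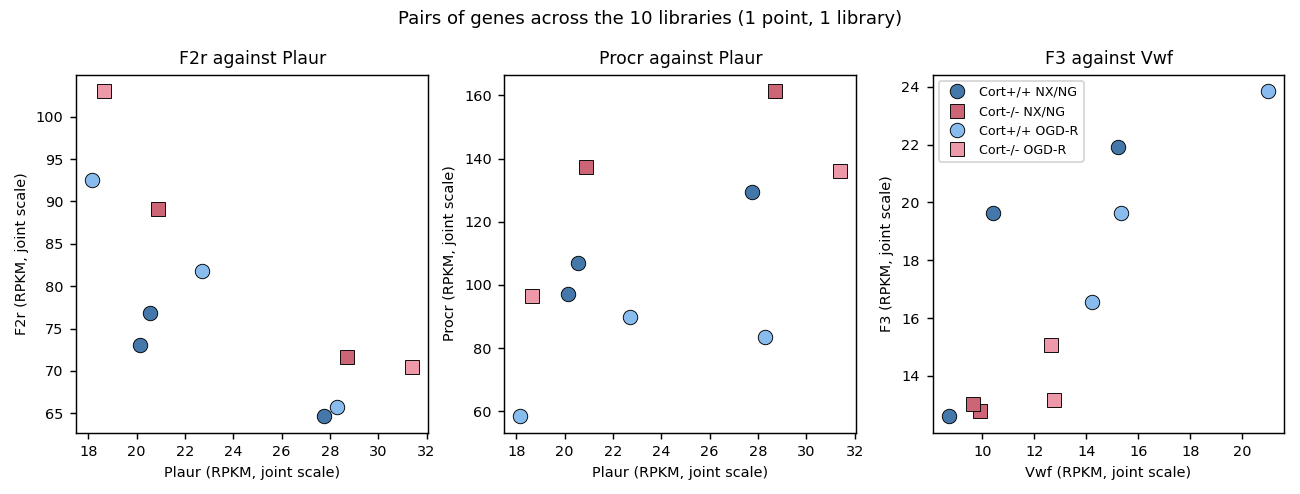
Levels of 3 pairs of genes in RPKM on the joint scale (both axes), 1 point for each of the 10 libraries, with colour and shape for genotype and environment. F2r was lowest in the 4 libraries with the most Plaur. Procr was higher where Plaur was higher within each NX/NG group and in Cort-/- OGD-R. F3 was higher where Vwf was higher within the Cort+/+ groups, while the libraries of each Cort-/- group were nearly level in Vwf.

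Procr ran with Plaur, with r = 0.88 within groups and r = 0.57 (rho = 0.53) over all 10 libraries, but leaving out the 2 libraries farthest from the median of Procr left r = 0.27. In every group with 2 libraries the one with more Plaur also had more Procr. F3 and Vwf ran together, with r = 0.86 within groups, r = 0.79 (rho = 0.83) over all libraries and r = 0.61 without the 2 farthest from the median of Vwf. This rested on the Cort+/+ libraries. In both Cort-/- groups the library with more Vwf had less F3, but the 2 libraries were nearly level in Vwf. They were at 9.93 and 9.65 RPKM under NX/NG and at 12.6 and 12.8 RPKM after OGD-R, so their order says little. Both were highest in Cort+/+ OGD-R replicate 1 and, under NX/NG, in Cort+/+ replicate 2. Thbd and Procr, which lay apart between genotypes in opposite directions, had r = -0.57 (rho = -0.59) over all libraries, r = -0.83 without the 2 farthest from the median of Thbd and r = -0.20 within groups. Within groups, 297 of the 13788 genes averaging 1 RPKM or more, Procr included, had a correlation with Plaur at least as high as that of Procr. For Vwf, 115 of these genes, F3 included, had one at least as high as that of F3. The correlations between members describe 10 libraries that share groups and depth, with fewer independent values for those within groups. They were picked among 36 pairs.

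Among all genes averaging 1 RPKM or more, those whose log2 levels ran most like each member over the 10 libraries were named as a description. For Thbd they were Gja1 (r = 0.95), which encodes the gap junction protein connexin 43, and Rdh14 (r = 0.95). For Procr they were Adam8 (r = 0.96), a membrane metalloprotease, and Shb (r = 0.96), an adaptor protein. For F3 they were Hey1 (r = 0.95), a transcription factor downstream of Notch, and Smoc2 (r = 0.94), and for Vwf Foxq1 (r = 0.96) and Tbc1d17 (r = 0.93). Tfpi ran with Rabgap1l (r = 0.96) and Pdcd4 (r = 0.94), Plat with Wtap (r = 0.94) and Snord52 (r = 0.91), and Plau with Glud1 (r = 0.95) and Bean1 (r = 0.94). Plaur ran with Cfap157 (r = 0.96) and Lims2 (r = 0.95), and F2r with Morc4 (r = 0.96) and Ctso (r = 0.96). With 13788 genes compared over 10 libraries, values of this size are the top of a long list.

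The other genes of these pathways were taken from fixed lists of 53 genes. Of these, 24 averaged 1 RPKM or more. None of the 16 circulating coagulation factors did, the highest being F8 at 0.683 RPKM and F5 at 0.363 RPKM, and plasminogen itself (Plg) was at 0.067 RPKM. No gene of the lists passed an FDR of 0.05 by limma in any comparison.

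Under NX/NG, 3 of the 52 pathway genes tested were higher and 6 lower in Cort-/- cells at an unadjusted p below 0.05, 9 in all, beside 8.39% of all genes. Among the 12 genes of fibrinolysis 3 were lower and 0 higher. They were Lrp1, a scavenger receptor that clears activator-inhibitor complexes (log2FC -0.95 ± 0.20, limma, unadjusted p = 0.0053), Serpine2, a thrombin and urokinase inhibitor (-0.55 ± 0.12, unadjusted p = 0.0061), and S100a10, which with annexin A2 forms a plasminogen receptor (-0.35 ± 0.08, unadjusted p = 0.008). Lrp1 was at 28.0 and 20.8 RPKM in Cort-/- and at 51.8, 51.7 and 37.5 RPKM in Cort+/+ cells. It was 1 of 2 pathway genes that passed the FDR with limma-voom (0.0324), beside 0.414% of all genes. Anxa2 had a log2FC of -0.05 ± 0.06. The fibroblast and pericyte markers given above moved with these genes and with Klf4, described next, and their part was not tested.

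Outside fibrinolysis, Entpd1 (CD39), an ectonucleotidase that restrains platelets, was higher in Cort-/- cells in both environments. It was at 7.67 and 7.59 against 4.57, 6.24 and 5.79 RPKM under NX/NG and at 5.20 and 6.41 against 4.28, 4.07 and 3.93 RPKM after OGD-R, without overlap. The log2FC of Entpd1 was 0.46 ± 0.14 (limma, unadjusted p = 0.0237) and 0.49 ± 0.13 (unadjusted p = 0.0121). Without the libraries low in ribosomal RNA the latter was smaller, at 0.37, from a single Cort-/- library. Klf4, a transcription factor known to raise Thbd, was at 8.58 and 5.95 RPKM in Cort-/- and at 15.9, 15.3 and 11.1 RPKM in Cort+/+ cells under NX/NG (log2FC -0.96 ± 0.23, limma, unadjusted p = 0.0082), while Klf2 overlapped between genotypes. After OGD-R, Klf4 was at 7.60 and 13.6 against 17.2, 14.4 and 13.5 RPKM, with overlap. All 3 other thrombin or protease-activated receptors, F2rl1, F2rl2 and F2rl3, had positive log2FCs under NX/NG, and that of F2rl1 (0.83 ± 0.28) had an unadjusted p of 0.033, whereas F2rl3 (0.60 ± 0.41) did not reach 0.05.

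**Figure D4:**
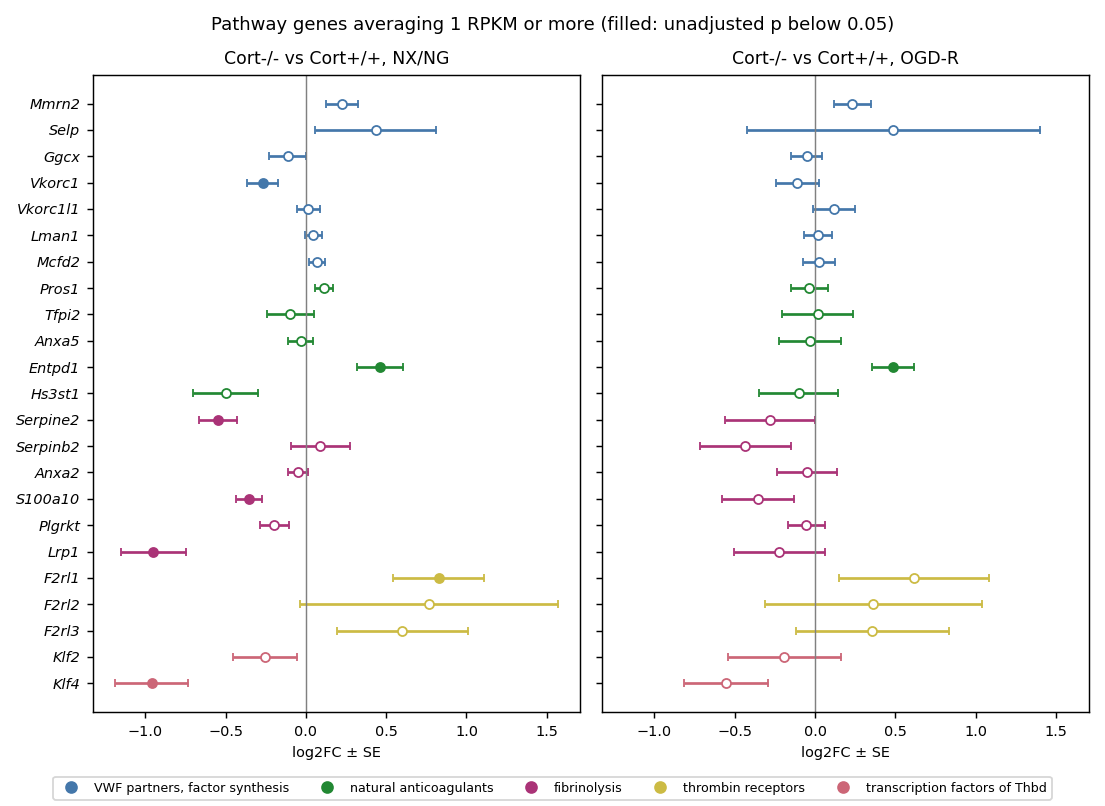
The log2FC ± SE by limma (horizontal axes, the same range in both panels) between Cort-/- and Cort+/+ cells of 23 pathway genes averaging 1 RPKM or more (rows), under NX/NG (left) and after OGD-R (right), coloured by list. Filled points have an unadjusted p below 0.05. Entpd1 was filled in both panels, and Lrp1, Serpine2, S100a10, Klf4, F2rl1 and Vkorc1 under NX/NG.

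After OGD-R, 2 of the 52 pathway genes tested had an unadjusted p below 0.05 between genotypes, Entpd1 and Kng2, the latter at 0.064 RPKM, beside 3.42% of all genes. Between environments, 2 of 51 genes did in Cort+/+ cells (5.48% of all genes) and 2 of 50 in Cort-/- cells (4.08% of all genes). Entpd1 was lower after OGD-R in both, with log2FCs of -0.41 ± 0.13 in Cort+/+ and -0.40 ± 0.14 in Cort-/- cells. In Cort+/+ cells Serpinb2, which encodes the inhibitor PAI-2, was higher (0.85 ± 0.22, limma, unadjusted p = 0.007), at a mean level of only 1.37 RPKM. In Cort-/- cells the log2FC of Lrp1 was 0.64 ± 0.23 (limma, unadjusted p = 0.0485), and 0.41 without OGD-R replicate 3, from a single OGD-R library. The fibroblast markers, at 83.6 to 121 RPKM under NX/NG and 200 to 252 RPKM after OGD-R in Cort-/- cells, moved with Lrp1 there, and their part was not tested. The interaction had 0 of 51 pathway genes at an unadjusted p below 0.05. Without the libraries low in ribosomal RNA, which leaves 1 Cort-/- OGD-R library, the interaction was -0.41 for S100a10 and 0.74 for Lrp1.

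For the genotype difference averaged over both environments, 4 of the 51 pathway genes tested were higher and 5 lower at an unadjusted p below 0.05, beside 10% of all genes. The lowest p values among the genes averaging 1 RPKM or more were those of Entpd1 (log2FC 0.48 ± 0.10, limma, unadjusted p = 0.0012), Klf4 (-0.75 ± 0.19, unadjusted p = 0.0038) and Mmrn2, a protein of the endothelial surface matrix (0.23 ± 0.07, unadjusted p = 0.0096). Entpd1 was 1 of 2 pathway genes that passed the FDR with limma-voom (0.0396), beside 0.761% of all genes. Serpine2 (-0.41 ± 0.17) and S100a10 (-0.35 ± 0.13) had unadjusted p values of 0.0387 and 0.0239, while Anxa2 (-0.04 ± 0.09) and F2rl3 (0.48 ± 0.35) did not reach 0.05. After OGD-R alone, the log2FC between genotypes was -0.28 ± 0.28 for Serpine2, -0.36 ± 0.22 for S100a10, -0.05 ± 0.19 for Anxa2 and 0.35 ± 0.48 for F2rl3, none with an unadjusted p below 0.05. Without the libraries low in ribosomal RNA these were -0.48, -0.76, -0.27 and 0.63, from a single Cort-/- library. Between environments, the log2FC of F2rl3, the thrombin receptor PAR4, was -0.63 ± 0.39 in Cort+/+ and -0.89 ± 0.49 in Cort-/- cells, and those of Serpine2, Anxa2 and S100a10 lay between -0.16 and 0.10. Without the libraries low in ribosomal RNA they lay between -0.43 and 0.05, the lowest being that of S100a10 in Cort-/- cells. That of F2rl3 was then -0.31 in Cort+/+ and -0.29 in Cort-/- cells. The Cort-/- values here rest on a single OGD-R library.

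The 9 genes are spread over chromosomes 2, 3, 6, 7, 8, 13 and 14, with Tfpi, Thbd and Procr on chromosome 2, while Cort lies on chromosome 4 (GENCODE annotation of GRCm38). No exon of another gene of that annotation overlapped an exon of a member.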

How the data were processed

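RNA-seq of mouse BEC cultures was analysed from the RPKM values that the authors deposited per gene and library, 1 table per environment. The study names its pipeline as reanalyzerGSE, and the aligner, counter and genome build are not given in the sources used here. The authors' fold changes and p-values were not used, nor were 10 category columns. Whole reads were recovered for 99.9958% to 100% of values (tolerance 0.05 reads). Comparisons within an environment used the deposited RPKM, and those across environments used recovered reads of the 27321 genes in both tables, scaled jointly by trimmed means of M values. Library values in the text are on this joint scale, which multiplied deposited values by 0.974 to 1.03, and marker sums are as deposited. The test was limma 3.58.1 (R 4.3.3, mean-variance trend) on log2(RPKM + 0.1) with Benjamini-Hochberg adjustment over all genes above 0 in a library. Its code was run on simulated reads with larger changes than those of the members, which does not measure its power for changes of their size. Replicates were pools of 3 mice, and p-values measure the spread between pools. Alternatives were a pseudocount of 1, a filter of 1 RPKM in 2 libraries, quantile normalization, limma-voom, all groups in 1 fit, a replicate block, and leaving out libraries. Members and lists were chosen with earlier results of these data known. Every member was named throughout, as were Serpine2, Anxa2, S100a10 and F2rl3, and per comparison up to 3 other pathway genes averaging 1 RPKM with the lowest unadjusted p below 0.05. Klf2, F2rl1, F2rl2, Vkorc1, Kng2, F8, F5 and Plg were named after their values were seen. Values of 1 pathway gene are not reported here. The third Cort-/- NX/NG culture and the second Cort-/- OGD-R culture were not analysed here.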

Additional observations from a re-analysis of the deposited data

How the results depend on the processing

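The count of members past an FDR of 0.05 was 0 under all alternatives of the 5 planned comparisons. For the genotype difference averaged over both environments it was 1 with limma-voom, Thbd. Calls over all genes between genotypes also moved with the setting. Under NX/NG they went from 0 to 20 with a pseudocount of 1, 4 with all groups in 1 fit and 124 with limma-voom. After OGD-R they went from 0 to 7 with all groups in 1 fit and 5 with limma-voom. Both stayed at 0 with the RPKM filter, quantile normalization and the replicate block. Calls from fits with 1 Cort-/- library in a group are not given, since that group has no spread. Of 702 member log2FCs under the alternatives, 637 kept their direction and 65 reversed. For alternatives other than limma-voom, the share of all genes at an unadjusted p below 0.05 was not computed. Member counts at that threshold therefore show only how they moved with the setting, and are not results about the members. With all groups in 1 fit, 1 instead of 2 members had an unadjusted p below 0.05 under NX/NG, and 0 instead of 1 between environments in Cort-/- cells. Under the replicate block, the members at an unadjusted p below 0.05 went from 2 to 1 under NX/NG and from 3 to 0 after OGD-R between genotypes, remained 2 in number between environments in Cort+/+ cells, and were 4 for the averaged difference and 0 for the interaction. Same-numbered libraries correlated by -0.388 to 0.13 in their deviations from the group means. Between the 2 Cort+/+ groups, with 3 libraries each, same-numbered libraries correlated by -0.0307, -0.0606 and 0.11. Differently numbered ones there correlated by -0.142 to 0.171, so same numbers were no closer. Pairs with a Cort-/- group cannot decide whether libraries shared a pool of mice, since in a group of 2 the deviations mirror each other. Apart from the block, the fits treated all libraries as independent. The block reversed Plat under NX/NG (0.038) and, in the interaction, F3 (0.18) and Plaur (0.0064). Quantile normalization reversed Plaur between environments in Cort-/- cells (0.0042) and Plat in the interaction (0.0050).

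Without both libraries low in ribosomal RNA, which leaves 2 Cort+/+ and 1 Cort-/- library after OGD-R and assumes that the lone library varies like the others, 0 members had an unadjusted p below 0.05 between genotypes after OGD-R, and 2 did between environments in each genotype. The log2FCs that reversed were those of Plat (0.095) and Plaur (-0.12) between genotypes after OGD-R, of Plau (0.0048) and Plaur (-0.15) between environments in Cort+/+ cells, and of Thbd (-0.027) and Plau (0.017) in Cort-/- cells. In the interaction they were those of F3 (0.19), Procr (-0.017), Plat (0.11), Plau (0.013) and F2r (0.082), and in the averaged genotype difference Plat (0.038) and Plaur (-0.0019). For 10 named pathway genes, a set chosen after the data were seen, the same omission brought none past the FDR. It reversed Klf4 (-0.0019) between environments in Cort+/+ cells, Serpine2 (-0.22), Anxa2 (-0.17) and F2rl1 (0.55) in Cort-/- cells, and F2rl3 (0.021), F2rl1 (0.22), Entpd1 (-0.10) and Mmrn2 (0.054) in the interaction.

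With each library left out in turn, members at an unadjusted p below 0.05 ranged from 0 to 3 under NX/NG, from 0 to 2 after OGD-R, from 0 to 2 between environments in Cort+/+ cells, from 0 to 4 in Cort-/- cells and from 3 to 5 for the averaged difference, and 0 were found for the interaction. The count was 0 under NX/NG without either Cort-/- library, after OGD-R without Cort+/+ replicate 1, between environments in Cort+/+ cells without NX/NG replicate 3 and in Cort-/- cells without NX/NG replicate 2, where it was 4 without OGD-R replicate 1. Ranges of log2FCs that crossed 0 were, under NX/NG, -0.12 to 0.34 for Plaur, -0.14 to 0.038 for Plat and -0.37 to 0.036 for Vwf. After OGD-R they were -0.071 to 0.29 for Plau, -0.17 to 0.38 for F2r, -0.17 to 0.091 for Plat and -0.28 to 0.47 for Plaur. Between environments in Cort+/+ cells they were -0.17 to 0.099 for Thbd, -0.15 to 0.17 for Plaur, -0.067 to 0.33 for F3 and -0.16 to 0.090 for Plau, and in Cort-/- cells -0.39 to 0.36 for Plaur, -0.18 to 0.37 for F2r, -0.027 to 0.31 for Thbd and -0.34 to 0.017 for Plau. In the interaction they were -0.40 to 0.35 for Plaur, -0.29 to 0.070 for Plau, -0.33 to 0.22 for F2r, -0.16 to 0.11 for Plat, -0.20 to 0.19 for F3 and -0.085 to 0.41 for Procr. For the averaged difference they were -0.081 to 0.29 for Plaur, -0.096 to 0.036 for Plat and -0.0028 to 0.27 for F2r. The cause of these shifts was not tested, and the share of all genes at an unadjusted p below 0.05 was not computed for these fits.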
